A study of Mus musculus with 7 samples.

Results

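The Schlafen genes are a small family, most of whose mouse members sit side by side on chromosome 11. The 7 members described here are Slfn1, Slfn2, Slfn3, Slfn4, Slfn5, Slfn8 and Slfn9, each found by its exact symbol among the 23930 genes of a targeted transcriptome table. The family was chosen because earlier results of these data showed its members differing between hypercapnia and normocapnia, so that contrast is given for the members as a description. The calls of the fit over all genes are quoted for them once, and nothing is read from those. The relatives Slfn10-ps, Slfn14 and Slfnl1, also in the table, were read beside them.

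RNA came from cells sorted on green fluorescence out of the hind leg muscles of Pax7-GFP C57BL/6 littermates. The genotype labels run from C57BL/6 for NC1 to C57BL/12 for HC4, one step per library, while the growth notes name the same strain for all. In these mice tamoxifen turns on a GFP label in cells that express Pax7, the transcription factor of satellite cells, which are the stem cells of muscle. From 12 weeks of age every mouse was kept for 4 weeks in either normocapnia (NC, 3 libraries, NC1 to NC3) or hypercapnia (HC, a chamber with raised CO2, 4 libraries, HC1 to HC4), with collection at 16 weeks. All mice were given tamoxifen, in chow during the first part of this exposure by the methods. According to the study's methods, muscles of both groups had been injured with cardiotoxin before the cells were taken. Collection followed the injury by 3 days in those methods, whereas the title of the deposited table carries a time of 40 h whose meaning is not stated. The labels do not say how many animals went into a library, so the spread between libraries may be partly technical.

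Schlafen proteins share an N-terminal domain with nuclease-like features, and the longer members add a helicase-like part. Slfn1 and Slfn2 are the short forms, Slfn3 and Slfn4 are intermediate, and Slfn5, Slfn8, Slfn9 and Slfn14 are long. They are known from T cells and macrophages, where several are induced by type I interferon and where Slfn2 is needed for resting T cells and monocytes to stay quiescent. Slfn2 also binds tRNAs and shields them from cleavage by the ribonuclease angiogenin. Slfn4 is known as a marker of myeloid cells, Slfn1 as an inhibitor of thymocyte growth, and Slfn5 as an interferon-inducible nuclear regulator of transcription. Slfn10-ps is listed as a pseudogene, and Slfnl1 is a more distant relative.

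Depth was high enough for each member. Where values of a gene are listed below they stand in the order NC1, NC2, NC3 and HC1, HC2, HC3, HC4. Libraries held between 14527445 and 23388710 reads, so that 1 read was worth 0.0428 to 0.0688 RPM, the deposited unit, in which reads are scaled to a common total per library, and the lowest value of any member, 5.44 RPM for Slfn1 in NC3, still rested on 79 reads. Markers of cells other than satellite cells were abundant. The satellite marker Pax7 ran from 4.34 to 268 RPM, the summed satellite markers (11 genes) from 604 to 4334 RPM, and the summed macrophage markers (14 genes) from 13657 to 37626 RPM, of which Lyz2 alone gave 8354 to 29108 RPM. Reads of different amplicons do not rank genes, so these sums compare libraries only. In such bulk RNA a change in the number of cells of a type and a change in RNA per cell cannot be told apart. The libraries also fell into 2 classes by Xist, the RNA of the inactive X chromosome. Xist ran from 445 to 701 RPM in NC1, NC2, HC1 and HC2 and was at most 0.125 RPM in NC3, HC3 and HC4, where the Y-linked Ddx3y was at 103 to 206 RPM. HC1 and HC2 were the most alike of all 21 pairs of libraries and HC3 and HC4 the next, although each pair still differed by more than counting noise.

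The regulatory sequence of the cluster is shown first, with the letters found near the members' start sites. RefSeq promoters (250 bases before to 50 bases after the start, build GRCm38.p6, a build that the sources used here do not name for the deposited table) were found for 7 of 7 members. The letters GAAANNGAAA, the core of the interferon-stimulated response element bound by interferon-activated factors, were searched on both strands and occurred in 3.49% of 27025 promoters and in 3 of the 7 members, Slfn5, Slfn8 and Slfn9. The run ACTTCCTGG was found by comparing the members' promoters with each other, so its presence in 4 of them (Slfn1, Slfn2, Slfn3 and Slfn4) is how it was chosen. It occurred in 0.888% of all promoters and, read on the other strand, holds the GGAA core that ETS-family factors recognise. The letters TTCNNNGAA, bound by STAT dimers, were in 8.47% of all promoters and in 0 of the 7. A match describes letters only, and binding was not measured. The promoters of the pair Slfn1 and Slfn4 and of the pair Slfn8 and Slfn9, which share the longest runs (15 and 20 bases), are printed with that of Slfn5. Capitals mark GAAANNGAAA in either reading direction or ACTTCCTGG.
Slfn1 promoter, chr11:83116570-83116869, strand +: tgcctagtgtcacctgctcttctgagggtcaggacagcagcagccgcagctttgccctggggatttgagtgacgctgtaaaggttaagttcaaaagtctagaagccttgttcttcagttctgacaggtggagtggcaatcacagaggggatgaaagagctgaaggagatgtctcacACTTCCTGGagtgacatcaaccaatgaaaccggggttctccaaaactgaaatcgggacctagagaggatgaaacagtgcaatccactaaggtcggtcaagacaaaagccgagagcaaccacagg
Slfn4 promoter, chr11:83174936-83175235, strand +: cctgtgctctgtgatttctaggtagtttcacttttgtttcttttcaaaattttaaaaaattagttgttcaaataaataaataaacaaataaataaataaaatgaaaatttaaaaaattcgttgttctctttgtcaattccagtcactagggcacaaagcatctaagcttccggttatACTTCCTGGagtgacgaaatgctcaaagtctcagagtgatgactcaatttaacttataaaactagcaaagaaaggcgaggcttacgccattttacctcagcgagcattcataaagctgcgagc
Slfn5 promoter, chr11:82951852-82952151, strand +: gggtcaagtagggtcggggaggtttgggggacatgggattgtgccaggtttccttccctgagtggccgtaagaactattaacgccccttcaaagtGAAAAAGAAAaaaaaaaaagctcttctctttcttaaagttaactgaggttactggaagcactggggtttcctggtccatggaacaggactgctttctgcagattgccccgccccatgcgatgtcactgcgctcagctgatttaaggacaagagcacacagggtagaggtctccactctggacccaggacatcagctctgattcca
Slfn8 promoter, chr11:83020761-83021060, strand -: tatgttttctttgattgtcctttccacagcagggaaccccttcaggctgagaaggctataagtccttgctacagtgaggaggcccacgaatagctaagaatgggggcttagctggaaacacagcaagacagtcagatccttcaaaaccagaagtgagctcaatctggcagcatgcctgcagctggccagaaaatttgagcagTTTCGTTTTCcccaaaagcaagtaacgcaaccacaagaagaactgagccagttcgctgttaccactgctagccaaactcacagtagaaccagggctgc
Slfn9 promoter, chr11:82991781-82992080, strand -: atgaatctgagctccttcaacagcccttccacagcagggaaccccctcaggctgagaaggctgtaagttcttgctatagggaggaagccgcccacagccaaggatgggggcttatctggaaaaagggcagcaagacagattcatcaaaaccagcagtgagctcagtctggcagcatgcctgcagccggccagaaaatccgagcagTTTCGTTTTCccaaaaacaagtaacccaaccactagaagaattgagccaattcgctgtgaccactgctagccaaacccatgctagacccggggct

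The capitals begin at position -74 of Slfn1 and -73 of Slfn4, counting -1 as the last base before the start. They begin at -155 in Slfn5, -48 in Slfn8 and -45 in Slfn9, where the run TTTCGTTTTC is GAAANNGAAA read on the other strand. The run common to the Slfn8 and Slfn9 promoters was TCTGGCAGCATGCCTGCAGC, just upstream of it. Slfn8 and Slfn9 are neighbours in the cluster, whose order is Slfn5, Slfn9, Slfn8, Slfn10-ps, Slfn2, Slfn1, Slfn4, Slfn3, the gene AI662270 and Slfn14.

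Slfn4, the myeloid member, was at 96.7, 271 and 55.7 RPM in the NC libraries and at 419, 481, 369 and 244 RPM in the HC libraries. HC1, HC2 and HC3 lay above every NC library, and HC4 lay below NC2, so the groups overlapped. The means were 141 ± 114 RPM (SD, n = 3) and 378 ± 101 RPM (SD, n = 4), and the difference of the mean log2(RPM + 1) values was 1.68 (SE 0.58), where 1 would be a doubling.

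Slfn1, the inhibitor of thymocyte growth, was at 32.3, 72.9 and 5.44 RPM in the NC libraries and at 81.8, 81.6, 80.0 and 68.7 RPM in the HC libraries. The HC libraries were within 1.19-fold of each other, whereas the NC libraries spanned 13.4-fold, and HC4 again fell below NC2. The log2 difference was 1.65 (SE 0.83), and it was 0.67 without NC3 and 2.43 without NC2, so single NC libraries decided much of its size. Slfn3, next to Slfn4 in the cluster, was at 12.8, 42.1 and 11.2 RPM in the NC libraries and at 50.8, 49.1, 31.6 and 29.0 RPM in the HC libraries. NC2 lay among the HC libraries and the log2 difference was 1.04 (SE 0.52).

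Slfn5, the interferon-inducible nuclear member, had NC libraries within 1.75-fold of each other. It was at 73.7, 129 and 80.4 RPM in the NC libraries and at 187, 206, 182 and 116 RPM in the HC libraries, with HC4 again the only HC library below NC2. Its means were 94.3 RPM (n = 3) and 173 ± 39.0 RPM (SD, n = 4), a log2 difference of 0.88 (SE 0.28). Slfn8, another long member, was at 13.6, 36.9 and 8.40 RPM in the NC libraries and at 31.1, 34.2, 26.0 and 18.3 RPM in the HC libraries. NC2 exceeded all 4 HC libraries here, and the log2 difference of 0.68 (SE 0.52) became 0.23 without NC3 and 1.24 without NC2.

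Slfn9 departed from that layout. It was at 36.1, 5.51 and 5.64 RPM in the NC libraries and at 25.6, 26.3, 35.4 and 26.9 RPM in the HC libraries. NC1, which for Slfn1, Slfn3, Slfn4, Slfn5 and Slfn8 lay below all HC libraries, was here above all of them, while NC2 and NC3 were below all of them. The log2 difference was 1.32 (SE 0.67), and it was 2.15 without NC1.

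Slfn2, which protects tRNAs, was the only member without a higher mean in HC. It was at 267, 1500 and 842 RPM in the NC libraries and at 718, 694, 642 and 514 RPM in the HC libraries, so every HC library lay between NC1 and NC3. The log2 difference was -0.13 (SE 0.59) and its sign was not stable, since it was 0.43 without NC2 and -0.82 without NC1.

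**Figure D1:**
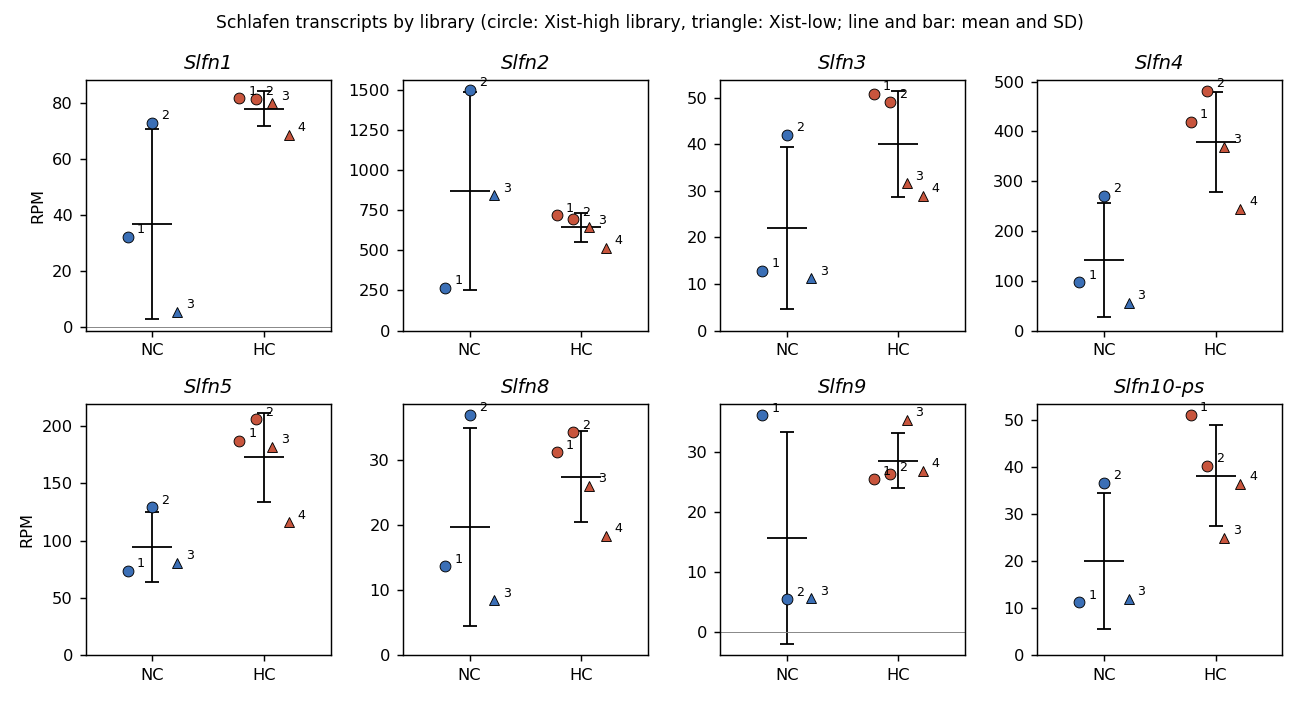
RPM of the 7 members and of Slfn10-ps (vertical axes, linear, different for each gene) in the 3 normocapnia (NC, blue) and 4 hypercapnia (HC, red) libraries. Numbers are replicate numbers, circles are Xist-high and triangles Xist-low libraries, and the line and bar are the group's mean and SD. NC2 sits within or above the range of the HC libraries for Slfn1, Slfn2, Slfn3, Slfn4, Slfn5 and Slfn8, and NC1 takes that place for Slfn9.

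Of the relatives, Slfn10-ps was at 11.2, 36.6 and 12.0 RPM in the NC libraries and at 51.1, 40.3, 24.9 and 36.4 RPM in the HC libraries, a log2 difference of 1.07 (SE 0.48). NC2 again lay among the HC libraries, as it did for Slfn3. Slfn14, which is known from platelets and red cell precursors, had at most 3 reads in any library, and Slfnl1 had 7 reads in NC2, 7 in HC1 and 0 elsewhere. A value of 0 allows up to 3 reads by counting error, which is 0.128 to 0.207 RPM, so neither was measured well enough to compare.

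Over the members, 6 of 7 had a higher mean in HC, where 59.5% of the 8229 genes averaging 10 RPM or more did. The members' median log2 difference was 1.04 against 0.13 for those 8229 genes, and 4 of 7 members exceeded a log2 difference of 1, as did 6.89% of the genes. The general shift of 0.13 became -0.01 and 0.02 under median-of-ratios scaling and quantile normalization, where the members' median was 0.90 and 0.89, and -0.06 and -0.10 in the edgeR and DESeq2 fits, where it was 0.79 and 0.76. At an unadjusted p under 0.05 and a fold above 1.5, limma called 2 of 7 members higher (Slfn4 and Slfn5; 1.43% of all 23930 genes were called) and 0 of 7 lower (1.14% of all genes). Because the members were picked on this contrast, nothing is read from these counts. Slfn5, with log2 differences of 0.74, 0.75 and 0.71, was not called under median-of-ratios scaling, edgeR or DESeq2. With the Xist class as a covariate, an alternative added after the data were seen, Slfn3, Slfn4 and Slfn5 were called. The calls also moved with single libraries. None of the 7 was called without NC3, HC1, HC2 or HC3, whereas Slfn1, Slfn3, Slfn4, Slfn5 and Slfn8 were called higher without NC2, and Slfn9 higher and Slfn2 lower without NC1. Over all genes, 0 had an adjusted p under 0.05 in limma (1114 at an unadjusted p under 0.05; lowest adjusted p 0.351), 0 in edgeR (806 unadjusted) and 29 in DESeq2 (1351 unadjusted).

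Groups without overlap were seen for 0 of the 7 members, compared with 9.62% of the genes of at least 10 RPM. The picture differed when libraries of 1 Xist class were set beside each other. Within both classes, Slfn1, Slfn3, Slfn4 and Slfn5 were higher in every HC library than in every NC library, 4 of 7 members and also Slfn10-ps, where 11.9% of the genes of at least 10 RPM were. For Slfn4 the log2 difference was 1.46 among the Xist-high libraries and 2.41 among the Xist-low ones, the latter resting on NC3 alone. For Slfn5 the values were 1.0 and 0.85. For Slfn2 they were 0.16 and -0.55, and for Slfn8 0.51 and 1.28. This comparison by Xist class was added after the data had been seen.

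**Figure D2:**
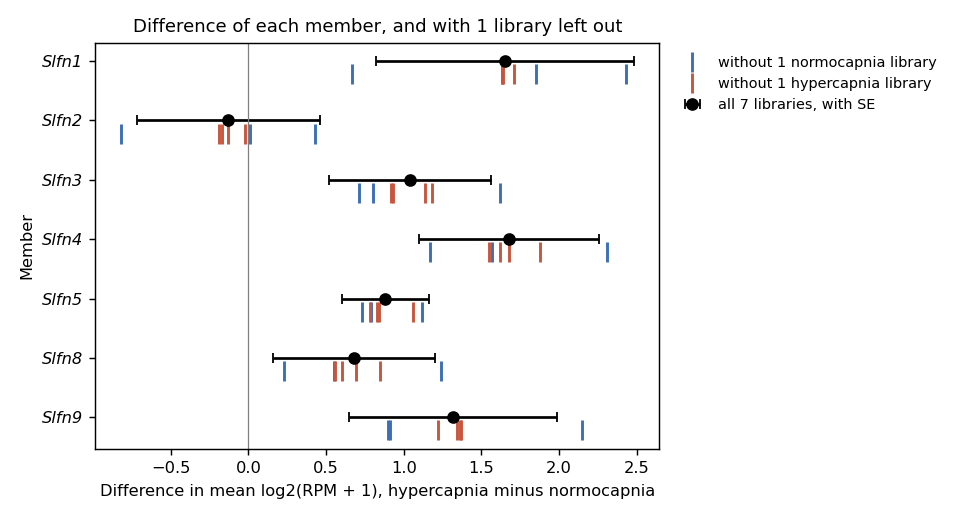
Difference in mean log2(RPM + 1), hypercapnia minus normocapnia (horizontal axis), of each member (vertical axis) with its SE over 7 libraries (black), and the same difference with 1 normocapnia (blue) or 1 hypercapnia (red) library left out. Values for Slfn2 run from -0.82 to 0.43 across 0, while those of Slfn4 stay between 1.17 and 2.31 and those of Slfn5 between 0.73 and 1.12.

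How the members stood relative to each other was also more even in HC. Reads of a targeted panel depend on each gene's amplicon, so the shares below compare libraries and not genes. Slfn2 supplied 47.5, 44.1, 47.0 and 50.5% of the family's reads in HC1 to HC4, and 50.1, 72.9 and 83.5% in NC1 to NC3. Slfn4 supplied 27.7, 30.6, 27.0 and 24.0% in HC1 to HC4, but 18.2, 13.2 and 5.52% in NC1 to NC3, which describes the contrast that chose the family on another scale and is no further evidence of it. The 95% Wilson intervals, which cover counting error only, were 23.3 to 24.7% for HC4 and 17.5 to 18.9% for NC1. Slfn9 supplied 6.79% in NC1, at most 0.560% in NC2 and NC3, and 1.67 to 2.65% in HC. The summed reads of the 7 members were 532, 2057 and 1009 RPM in NC1 to NC3 and 1017 to 1572 RPM in HC, so the groups overlapped in the total.

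**Figure D3:**
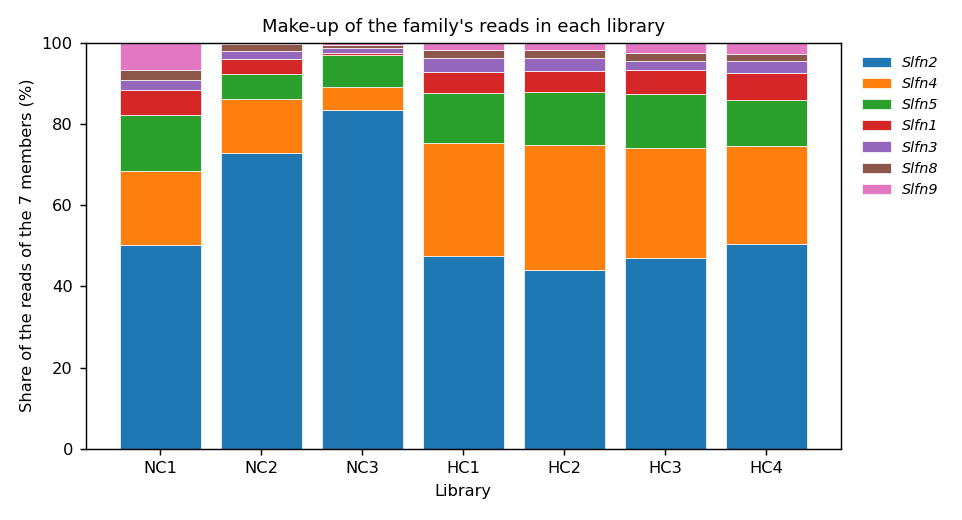
Share of the reads of the 7 members (vertical axis, %) that each member supplied in each library (horizontal axis). The 4 HC bars are alike, with Slfn4 at 24.0 to 30.6%, while in NC2 and NC3 Slfn2 takes 72.9 and 83.5% and in NC1 Slfn9 takes 6.79%.

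Whether members varied together could be asked without using the contrast that chose them, by taking each library's deviation from its own group's mean. Among the 21 pairs of members, 16 had a positive Pearson r between deviations of log2(RPM + 1). Slfn4 and Slfn8, which lie apart in the cluster, were the closest pair, with r = 0.999 and Spearman rho = 1.0 over 7 libraries (exact permutation within groups, two-sided, p = 0.00694, the smallest that rearranging libraries within groups can give; adjusted over the 21 pairs, 0.0972). Slfn3 and Slfn8 (r = 0.96, rho = 0.93) and Slfn3 and Slfn4 (r = 0.94, rho = 0.93) followed, each at an exact permutation p of 0.0139 (0.0208 for rho) and 0.0972 adjusted. In all, 6 pairs had an unadjusted p under 0.05 for r, all of them among Slfn3, Slfn4, Slfn5 and Slfn8, and 0 of 21 passed after adjustment. Without NC2 and NC3, the 2 libraries farthest from the median of Slfn4, the r of Slfn4 with Slfn8 was still 1.0, and it was 0.885 after quantile normalization. For Slfn3 with Slfn8 it was 0.90 without NC2 and HC1, the 2 farthest for Slfn3. The Xist classes held 4 and 3 libraries, too few for a value within a class.

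Slfn9 had negative values with Slfn3, Slfn4, Slfn5 and Slfn8, an r of -0.42, -0.17, -0.42 and -0.21 (exact permutation p = 0.701, 0.764, 0.431 and 0.764; rho = -0.43, -0.32, -0.61 and -0.32), none of which passed the test. With Slfn1 r was 0.18 (rho = -0.07; exact permutation p = 0.958 and 0.951), and it was 0.86 without NC3 and NC2. The r of Slfn9 was -0.92 with Slfn2 (rho = -0.96; exact permutation p = 0.0903 for r and 0.0347 for rho; 0.237 and 0.122 adjusted), and it was -0.52 without NC1 and NC2, so the relation leaned on those libraries. Slfn8, its cluster neighbour, is the member whose promoter holds the same TTTCGTTTTC run. Slfn1 correlated with Slfn4 at r = 0.88 (rho = 0.75; exact permutation p = 0.153 and 0.167), which fell to 0.22 without NC3 and NC2 and therefore rested on those libraries.

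**Figure D4:**
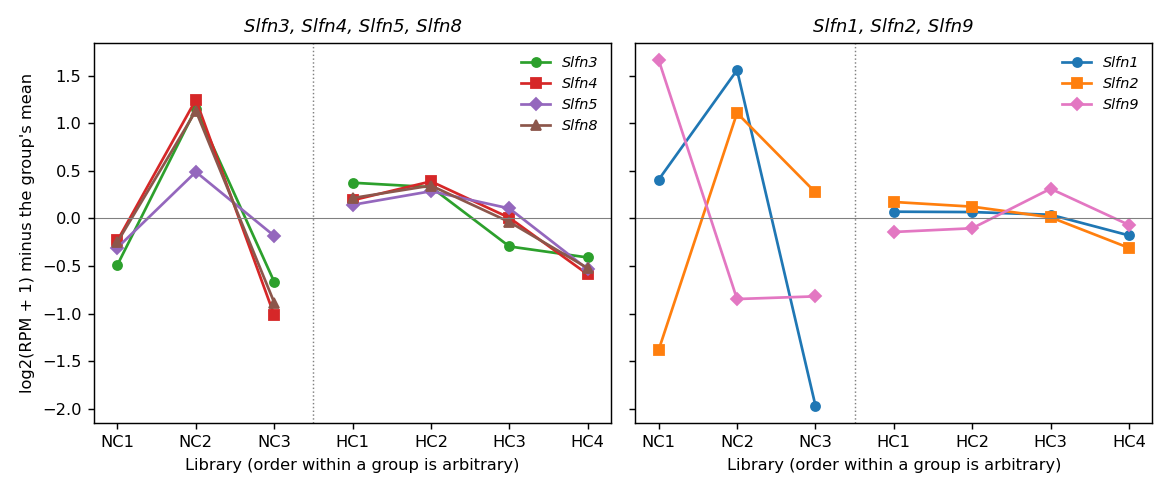
Each library's log2(RPM + 1) minus the mean of its own group (vertical axis) for the 7 members. Lines join the libraries of a group, whose order on the horizontal axis carries no meaning. Slfn3, Slfn4, Slfn5 and Slfn8 (left) are highest in NC2 among the NC libraries, with Slfn5 lowest in NC1 and the others in NC3, and 0 of 21 pairs of members passed after adjustment, while Slfn9 (right) is highest in NC1 and Slfn2 is lowest there.

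Members of a paralogous family can share reads. In GENCODE transcripts, 15.4% of the 50-base windows of Slfn8 were also found in another family gene, as were 19.7% of those of Slfn10-ps, 11.2% of Slfn9, 8.37% of Slfn4, 7.97% of Slfn3, 4.27% of Slfn2, 0.606% of Slfn1 and 0% of Slfn5. The shared windows of Slfn1, Slfn2 and Slfn3 were found in Slfn4, and Slfn8 and Slfn9 shared most with Slfn10-ps. Where the panel's amplicons lie in these transcripts is not stated. Values of Slfn1, Slfn2 and Slfn3 with Slfn4, and of Slfn8, Slfn9 and Slfn10-ps, are therefore uncertain to that extent.

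The genes most like each member over the 7 libraries (highest Pearson r of log2(RPM + 1) among 8221 genes of at least 10 RPM outside the family) separated the members further. For Slfn8 they were Irf9 (r = 0.992), a subunit of the interferon-activated factor ISGF3, the immunoproteasome gene Psmb10 (0.990) and Fam65b (0.988). For Slfn4 they were Sirt7 (0.988), Usp18 (0.988), which dampens interferon receptor signaling, and Mgat5 (0.985), and for Slfn3 they were Arhgdia (0.992), Tnfrsf21 (0.987) and the interferon-induced Ifi35 (0.986). Slfn5 was closest to Yipf1 (0.988), Padi4 (0.978) and Ifi30 (0.974). Slfn1 was closest to Cln3 (0.997), Nrros (0.996) and Plcg2 (0.995), and Slfn2 to Tcirg1 (0.990), Emp1 (0.976) and Metrnl (0.975). Slfn9 was closest to G2e3 (0.996), to Mcm5 (0.993), part of the helicase that opens replication origins, and to Uhrf1 (0.992), which maintains DNA methylation during replication. Slfn10-ps was closest to Gprasp1 (0.997), BC017643 (0.979) and Cyfip1 (0.974). These are the top of a ranking over 7 libraries that share depth, group and cell make-up, and carry no test.

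Set against gene lists, the median r of a member with 51 interferon-stimulated genes was 0.85 for Slfn4, 0.81 for Slfn3 and Slfn5, 0.79 for Slfn8, 0.76 for Slfn1 and 0.74 for Slfn10-ps. It was 0.41 for Slfn9 and 0.18 for Slfn2. Against all 8221 genes the same medians lay between -0.18 (Slfn2) and 0.37 (Slfn1). Group means were not removed for these r, so they contain the contrast that chose the members. The interferon-stimulated genes differ on that contrast as well, so a high r with them is no separate evidence, and no test was run. With 17 proliferation genes, by contrast, the median r was 0.96 for Slfn9 and -0.77 for Slfn2, and it was 0.05 to 0.49 for Slfn1, Slfn3, Slfn4, Slfn5, Slfn8 and Slfn10-ps. Slfn9 also had a median r of 0.82 with 10 satellite cell markers, where Slfn2 had -0.75. NC1, in which Slfn9 was highest and Slfn2 lowest, had the highest satellite marker sum (4334 RPM, against at most 1694 RPM elsewhere). It also had the highest proliferation sum (2448 RPM), though HC3 was close at 2199 RPM and HC4 was at 1820 RPM. With 12 macrophage markers the medians were 0.66 for Slfn3 and Slfn10-ps, 0.55 for Slfn2, 0.48 for Slfn4, 0.47 for Slfn5 and Slfn8, 0.23 for Slfn1 and -0.30 for Slfn9, and with the 3 monocyte markers they were 0.94 for Slfn1, 0.79 for Slfn4 and Slfn8, 0.71 for Slfn3, 0.64 for Slfn10-ps, 0.57 for Slfn9, 0.56 for Slfn5 and -0.16 for Slfn2.

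**Figure D5:**
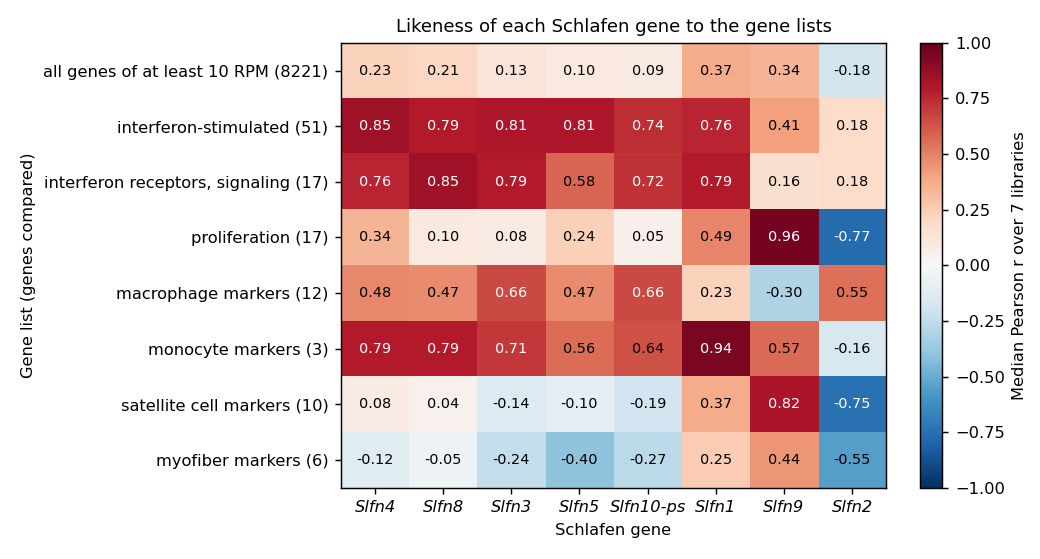
Median Pearson r over 7 libraries between each Schlafen gene (columns) and the genes of each list (rows, with the number of genes of at least 10 RPM compared). Slfn4, Slfn8, Slfn3, Slfn5, Slfn10-ps and Slfn1 have medians of 0.74 to 0.85 with the interferon-stimulated genes, while Slfn9 has 0.96 with the proliferation genes and Slfn2 has -0.77. Group means were not removed, so the values contain the contrast that chose the members.

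The interferon-stimulated genes themselves were mostly higher in HC. The list of 64 had 58 genes in the table, of which 15 were called higher by limma and 0 lower (1.43 and 1.14% of all genes), with 0 at an adjusted p under 0.05 (lowest adjusted p 0.564; 17 called higher and 0 lower by edgeR, 23 and 0 by DESeq2, with 2 adjusted). Their median log2 difference was 1.02, and 56 of 58 had a higher mean in HC, against 59.5% of the genes of at least 10 RPM. The count was 24 without NC2, 10 without HC1 and 11 without NC1, HC2 or HC3, and it was 35 with the Xist class as a covariate, an alternative added after the data were seen. Ifit1, which blocks translation of foreign RNA, was at 9.95, 10.5 and 8.40 RPM in the NC libraries and at 63.2, 57.7, 37.5 and 23.0 RPM in the HC libraries. Ifit1, named for its small p on this contrast, is 1 of 19 of the 58 genes that were higher in HC without overlap, where 9.62% of the genes of at least 10 RPM were apart in either direction. Among HC libraries it was highest in HC1 and lowest in HC4, the library that was also lowest for 6 of the 7 members. Mx1 (log2 difference 1.70, SE 0.45), Cmpk2 (1.25, SE 0.32), Trim21 (0.87, SE 0.13), Oasl2 (1.87, SE 0.48) and Ly6e (0.93, SE 0.16) were called too. The abundant Lgals3bp (1.15, SE 0.96), Lgals9 (0.70, SE 0.34), Epsti1 (0.35, SE 0.26) and AI607873 (0.42, SE 0.48) were not called.

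Upstream of the interferon response, 19 of 21 receptor and signaling genes were in the table and only Usp18, which is also among the 15 called interferon-stimulated genes, was called by limma, with a log2 difference of 1.47 (SE 0.54), while edgeR and DESeq2 each called 2 higher and 1 lower. Usp18 was at 6.33, 13.8 and 2.75 RPM in the NC libraries and at 23.1, 25.1, 22.5 and 11.2 RPM in the HC libraries, which ranks the 7 libraries as Slfn4 does. The receptor chains Ifnar1 (log2 difference -0.04, SE 0.19) and Ifnar2 (-0.48, SE 0.23) and the ISGF3 subunits Stat2 (0.45, SE 0.23) and Irf9 (0.36, SE 0.28) were not called. Of 16 interferon genes in the table, 14 had a mean under 1 RPM and limma called 0 (0 at an unadjusted p under 0.05, 0 called by edgeR and 4 higher by DESeq2). Of 5 genes that cleave or protect tRNA, the setting in which Slfn2 is known to act, limma and an unadjusted p under 0.05 both gave 0, and edgeR and DESeq2 each called 1 higher. Rnh1, which inhibits angiogenin-type ribonucleases, was at 163, 412 and 116 RPM in NC1 to NC3 and at 363 to 502 RPM in HC.

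Cell type markers moved with the members in part. The 3 monocyte markers summed to 89.6 RPM in NC3 and to 605 to 843 RPM in the other libraries, and NC3 was also the lowest library for Slfn1, Slfn3, Slfn4 and Slfn8. One of those 3, Plac8, was called higher (log2 difference 2.47, SE 0.73), from 8.88 to 71.7 RPM in NC and 92.4 to 226 RPM in HC. Ccr2, which defines recruited monocytes, was at 63.7 RPM in NC3 and 491 to 615 RPM elsewhere. Macrophage sums were 13657 RPM in NC1, 24940 RPM in NC2 and 37626 RPM in NC3, and 21542 to 26783 RPM in HC, with 2 of 14 markers called higher and 0 lower. Lymphocyte markers were low (summed 23.3 to 54.8 RPM in NC and 57.0 to 86.5 RPM in HC), with Il7r alone called higher of 13. Il7r gave most of these sums, 19.0 to 43.5 RPM in NC and 43.2 to 69.6 RPM in HC, and 5 of the 13 had a lower mean in HC. Limma called 0 of 10 neutrophil, 5 dendritic cell, 6 endothelial, 6 fibro-adipogenic, 11 satellite cell and 6 myofiber markers, and 0 of 18 proliferation genes, all with 0 at an unadjusted p under 0.05. All 18 proliferation genes still had a higher mean in HC, against 59.5% of the genes of at least 10 RPM. Their median log2 difference was 1.40. They summed to 2448, 337 and 407 RPM in NC1 to NC3 and to 1172 to 2199 RPM in HC, so the groups overlapped. In edgeR, 1 neutrophil marker and 2 proliferation genes were called higher and 1 satellite cell marker lower. In DESeq2, the counts were the same except for 1 further neutrophil marker, called lower. The part that these cell types play in the members' values was not tested.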

How the data were processed

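RNA of 7 libraries of sorted cells was made into AmpliSeq Transcriptome libraries, which amplify 1 short amplicon per gene, and read on an Ion S5 instrument. The authors deposited a table of RPM, which scale the reads assigned to the panel to a common total, for 23930 genes; Transcriptome Analysis Console is named in the submitters' processing notes, and for the aligner and genome build nothing is given in the sources used here. Values were whole multiples of 1 read in 100.0% of cases (tolerance 0.05 reads), so reads were recovered, which gave totals of 14527445 to 23388710 and a floor of 3 reads of 0.128 to 0.207 RPM.

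The 7 members and all gene lists were chosen with earlier results of these data known. Groups were compared with limma 3.58.1 under R 4.3.3. It was fitted to log2(RPM + 1) of all 23930 genes, two-sided, and genes were called at an unadjusted p under 0.05 and a fold above 1.5, with Benjamini-Hochberg adjusted p beside it. Alternatives were edgeR 4.0.16 and DESeq2 1.42.0 on recovered reads, pseudocounts of 0.1 and 5 RPM, a filter at a mean of 1 RPM, 2 other scalings, a replicate block, each library left out and, added after seeing the data, the Xist class as a covariate. The classes were split at 100 RPM of Xist. Pairs of members were tested on deviations from group means by exact permutation within groups. Fits, likeness ranking and pair tests were checked on simulated data. All of the table's 7 library columns matched a label.

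Genes were named by rule: the members and relatives, the 6 most abundant interferon-stimulated genes and the 6 with the smallest p, called genes of interferon signaling with its core receptor and factor genes, and the 3 genes most like each member. Of each marker list the 2 most abundant could be named, and only those that touch a result are. Library-wise shares carry 95% Wilson intervals for counting error. Protein sequences were not used here, and genes flanking the cluster are not reported here.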

Additional observations from a re-analysis of the deposited data

Results flagged for a closer look

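In the 4 hypercapnia libraries, 18 genes (the 7 members, Slfn10-ps and the named interferon-stimulated genes) were checked for a single library far from the other 3, by the gap to its nearest neighbour over the whole range (Dixon's 95% critical value). Slfn1 was at 68.7 RPM in HC4 and at 80.0 to 81.8 RPM in the other 3, a gap of 0.864 of the range. Slfn9 was at 35.4 RPM in HC3 and at 25.6 to 26.9 RPM in the other 3, a gap of 0.858 of the range. Chance alone flags about 1 group in 20, and both gaps are small beside the spread of the NC libraries for these genes (5.44 to 72.9 RPM for Slfn1 and 5.51 to 36.1 RPM for Slfn9).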

How the results depend on the processing

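The 15 interferon-stimulated genes called higher became 24 with a filter keeping means of 1 RPM or more, 23 with DESeq2, 25 with the replicate block (which leaves HC4, a library with no partner, out of the contrast; 18 without HC4 and no block), 35 with the Xist class as a covariate (added after seeing the data) and 10 to 24 with 1 library left out, highest without NC2. The cause was not tested. In every other setting run for it, that count stayed within 1.5 times 15, and 0 were called lower in all 16 settings. The number of members with a higher mean was 6 in each setting with no library left out and with the replicate block, and 6 or 7 with 1 library left out. Pairs of members with correlated deviations stayed at 0 after adjustment in the 11 settings run for them. The log2 differences of Slfn1, Slfn3, Slfn4, Slfn5, Slfn8 and Slfn9 kept their sign in all 16 settings, with the lowest values for Slfn8 (0.23) and Slfn1 (0.67) without NC3. The sign of Slfn2 turned without NC2 (0.43) and without NC3. Under median-of-ratios scaling, edgeR and DESeq2 the log2 difference of Slfn5 was 0.74, 0.75 and 0.71, against 0.88. Replicate numbers did not pair the libraries: deviations of NC1 and HC1, NC2 and HC2, and NC3 and HC3 correlated at -0.38, 0.51 and 0.03. The 7 libraries, 3 of them NC and differing from each other in cell markers, limit what can be seen.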

Other observations

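HC4, the library lowest for Slfn1, Slfn2, Slfn3, Slfn4, Slfn5 and Slfn8 among the HC libraries, had the highest summed interferon genes. The 16 genes that encode interferons summed to 47.5 RPM in HC4, to 8.87 RPM in HC3 and to 2.53 to 4.82 RPM in NC1, NC2, NC3, HC1 and HC2. Of these 16 genes, 14 had a mean under 1 RPM. HC4 also held the most genes at 1 RPM or more, 13932 against 10619 to 12462 in the other libraries. Whether its interferon sum is part of that wider detection was not tested. Ifnb1 was at 8.06 RPM and Ifna2 at 6.03 RPM in HC4, while Ifit1, which had the largest log2 difference (2.03) of the 6 interferon-stimulated genes named by smallest p, was at 23.0 RPM there, the lowest of the 4 HC libraries.

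Within HC, the libraries also divided by Xist class. For every member except Slfn9, the Xist-high HC1 and HC2 lay above the Xist-low HC3 and HC4. For Slfn9 they lay below, at 25.6 and 26.3 RPM against 35.4 and 26.9 RPM. Slfn3 was at 50.8 and 49.1 RPM in the Xist-high HC1 and HC2 and at 31.6 and 29.0 RPM in the Xist-low HC3 and HC4. Slfn1 hardly divided, at 81.8 and 81.6 RPM against 80.0 and 68.7 RPM. Some summed cell markers divided along the same libraries. Endothelial sums were 72.2 and 56.3 RPM in HC1 and HC2 and 518 and 390 RPM in HC3 and HC4. Satellite cell sums were 864 and 809 RPM against 1694 and 1383 RPM. Macrophage sums went the other way, at 26783 and 23232 RPM against 21542 and 21753 RPM. None of these differences between classes was tested.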
